A study of Mus musculus with 3 samples.

Results

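Chemokine ligands were examined in 3 mouse melanoma cell lines, YUMM2.1, YUMM1.7 and YUMM1.1, each sequenced as 1 RNA library. The ligands were taken as every gene symbol that begins with Ccl, Cxcl, Cx3cl or Xcl followed by a number and at most 1 letter, which gave 38 of the 25791 symbols in the authors' expression table. Of these, 23 belong to the CC class, 13 to the CXC class, 1 to the CX3C class and 1 to the XC class. YUMM lines come from melanomas of engineered mice that carry an activated Braf gene, and they can be grown in immunocompetent mice. The series concerns the response of transplanted melanoma to blockade of PD-1, a receptor that restrains T cells. The labels give each line by its name alone, with no genotype, treatment, culture condition or tumor response, and the RNA is from the lines themselves.

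Chemokines are small secreted proteins that guide leukocytes along gradients, and they act through G protein-coupled receptors on the migrating cell. Their classes are named for the spacing of the first cysteines, adjacent in CC chemokines and separated by a residue in CXC chemokines. Several ligands usually share a receptor, so the ligands are described here by the receptor they act on. Tumor cells are one of the sources of these proteins in melanoma, where they recruit monocytes, T cells, natural killer cells and other leukocytes.

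Expression is given in FPKM as deposited by the authors, that is, in sequenced fragments per transcript length and library size. Differences between these libraries still went with transcript length, as given below, so genes of unlike length are compared with that limit. With 1 library a line there is no spread between cultures to set a difference against, and no p-value is given. A ligand was counted as higher or lower where log2(FPKM + 1) differed by at least 1, a 2-fold difference on that scale. Intervals given with FPKM values are 95% Poisson intervals of the fragment number implied by the lowest FPKM values, and they cover counting error only. The implied depths were 91.0, 48.4 and 71.1 M scaled fragments in YUMM2.1, YUMM1.7 and YUMM1.1. The FPKM sums differed between the libraries, at 693156, 1827830 and 1041960 in the same order, so ratios of ligands inside a library are given beside levels. Library differences that go with transcript length stay in such a ratio where the genes differ in length.

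Of the 13 melanocyte lineage markers in the table, 6 reached 1 FPKM in YUMM2.1, 0 in YUMM1.7 and 3 in YUMM1.1, so the melanocyte identity of YUMM1.7 rests on its label here. Sox10, a transcription factor of the lineage, stood at 44.3, 0.00821 and 107 FPKM in YUMM2.1, YUMM1.7 and YUMM1.1, and the pigment cell gene Mlana at 6.18 FPKM, listed at 0, and 0.159 FPKM. Of 24 leukocyte markers, 4 reached 1 FPKM in YUMM2.1, 1 in YUMM1.7 and 2 in YUMM1.1, and their summed level was 50.8, 15.2 and 9.60 FPKM. The 4 in YUMM2.1 were Lyz2, which encodes lysozyme, the surface genes Cd53 and Cd68, and the calcium-binding gene S100a8. The pan-leukocyte gene Ptprc stood at 0.00217 FPKM in YUMM2.1 and was listed at 0 in the other lines. Cd3e of T cells and Itgam of myeloid cells had 0.0226 and 0.00312 FPKM in YUMM1.1 and a listing at 0 in YUMM2.1 and YUMM1.7. None of 7 endothelial markers reached 1 FPKM in any line. Of 10 fibroblast markers, 5 reached it in YUMM2.1, 9 in YUMM1.7 and 2 in YUMM1.1, with sums of 589, 372 and 103 FPKM that came mainly from the contractile genes Acta2 and Tagln in YUMM2.1 and from Acta2 and the collagen gene Col1a2 in YUMM1.7. In bulk RNA, fewer cells with a transcript and less of it in each cell cannot be told apart.

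Sequences are shown for the ligands that passed the 2-fold rule in at least 1 comparison and had an entry in the RefSeq promoter table, because their upstream regions can be read beside the differences between lines. Of 9 such ligands, 6 had an entry, and Ccl2, Ccl7 and Ccl5 are named only. Each run is the 250 bases before the RefSeq start, 5′ to 3′ on the gene's strand, in build GRCm38.p6. Capitals mark matches, on either strand, to 6 short motifs fixed as letters. These were a κB core read by NF-kB factors (GGANNTTCC), a core of the interferon-stimulated response element (AAANNGAAA), the gamma-activated site of interferon-responsive genes (TTCNNNGAA), the AP-1 site (TGANTCA), the GC box (GGGCGG) and the TATA box (TATAAA). Matches of different motifs can share bases, and a match is a description of the letters, not of binding.
Cxcl10, chr5:92348890-92349139, minus strand: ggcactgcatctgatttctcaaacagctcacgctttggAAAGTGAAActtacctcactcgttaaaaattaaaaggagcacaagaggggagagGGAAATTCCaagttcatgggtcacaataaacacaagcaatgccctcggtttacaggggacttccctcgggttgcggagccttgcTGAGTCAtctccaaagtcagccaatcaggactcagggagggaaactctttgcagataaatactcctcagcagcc
Cx3cl1, chr8:94771930-94772179, plus strand: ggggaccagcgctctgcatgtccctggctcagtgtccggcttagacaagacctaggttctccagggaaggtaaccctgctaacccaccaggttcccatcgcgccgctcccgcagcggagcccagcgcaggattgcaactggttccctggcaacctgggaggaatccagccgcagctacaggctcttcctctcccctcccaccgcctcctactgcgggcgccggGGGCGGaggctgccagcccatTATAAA
Cxcl12, chr6:117168285-117168534, plus strand: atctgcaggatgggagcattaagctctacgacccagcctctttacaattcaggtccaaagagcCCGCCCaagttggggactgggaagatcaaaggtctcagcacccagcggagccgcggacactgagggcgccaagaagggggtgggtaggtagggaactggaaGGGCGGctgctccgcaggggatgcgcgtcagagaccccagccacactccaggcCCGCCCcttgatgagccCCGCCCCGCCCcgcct
Ccl6, chr11:83593088-83593337, minus strand: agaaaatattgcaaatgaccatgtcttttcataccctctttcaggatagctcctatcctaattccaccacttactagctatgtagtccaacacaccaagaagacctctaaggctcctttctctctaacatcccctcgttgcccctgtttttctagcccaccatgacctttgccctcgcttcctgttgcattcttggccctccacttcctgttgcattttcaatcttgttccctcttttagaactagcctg
Ccl9, chr11:83578637-83578886, minus strand: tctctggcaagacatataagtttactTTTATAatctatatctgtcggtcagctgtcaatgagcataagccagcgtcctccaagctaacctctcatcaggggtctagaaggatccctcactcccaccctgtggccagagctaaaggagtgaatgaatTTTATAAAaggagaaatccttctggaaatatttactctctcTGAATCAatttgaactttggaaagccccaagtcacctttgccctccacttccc
Cxcl14, chr13:56296552-56296801, minus strand: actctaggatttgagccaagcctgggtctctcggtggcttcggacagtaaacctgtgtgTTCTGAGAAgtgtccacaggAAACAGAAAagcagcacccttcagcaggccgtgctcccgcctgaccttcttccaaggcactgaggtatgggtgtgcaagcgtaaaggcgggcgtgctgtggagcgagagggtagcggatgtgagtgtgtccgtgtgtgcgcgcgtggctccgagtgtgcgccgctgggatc

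The Cxcl10 run held the κB core at positions -158 to -150 from the start, the interferon element core at -212 to -204, and an AP-1 site at -74 to -68. The Cxcl14 run held a gamma-activated site at -191 to -183 and an interferon element core at -171 to -163. Cxcl12 held 5 GC boxes, a pair of which overlap. Cx3cl1 held a GC box at -27 to -22 and a TATA match at -6 to -1, directly before the start. Ccl9 held an AP-1 site and 3 TATA matches that partly overlap, and Ccl6 held no match to any of the 6 motifs. Over the 32851 promoter entries of the table, the same 250 bases held the κB core in 3.59%, the interferon element core in 9.37%, the gamma-activated site in 7.02%, the AP-1 site in 6.75%, the GC box in 32.7% and the TATA box in 12.4%. The 29 entries of chemokine ligands, which cover 26 of the 38 symbols, held them in 20.7%, 13.8%, 6.90%, 10.3%, 17.2% and 31.0%. The κB core lay upstream of Ccl1, Ccl12, Cxcl1, Cxcl2, Cxcl3 and Cxcl10, and of these Cxcl1 and Cxcl10 reached 1 FPKM in a line.

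Most chemokine genes stood below 1 FPKM or were listed at 0 in every line, and a listing at 0 is not read as absence of the transcript. At least 1 FPKM was reached by 12 of the 38 ligands in at least 1 line (31.6%, against 45.5% of all symbols), of which 7 were CC ligands, 4 CXC ligands and 1 the CX3C ligand. By line, 11 reached it in YUMM2.1 (28.9%), 10 in YUMM1.7 (26.3%) and 7 in YUMM1.1 (18.4%), against 41.8%, 40.7% and 40.4% of all symbols. Those at or above 1 FPKM in every line numbered 7 and were Ccl2, Ccl7, Ccl8, Ccl9, Ccl25, Cxcl1 and Cxcl10. A further 12 were above 0 in some line but never at 1 FPKM, with a highest value of 0.756 FPKM. The other 14 were listed at 0 in all 3 lines (36.8%, against 28.3% of all symbols).

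**Figure D1:**
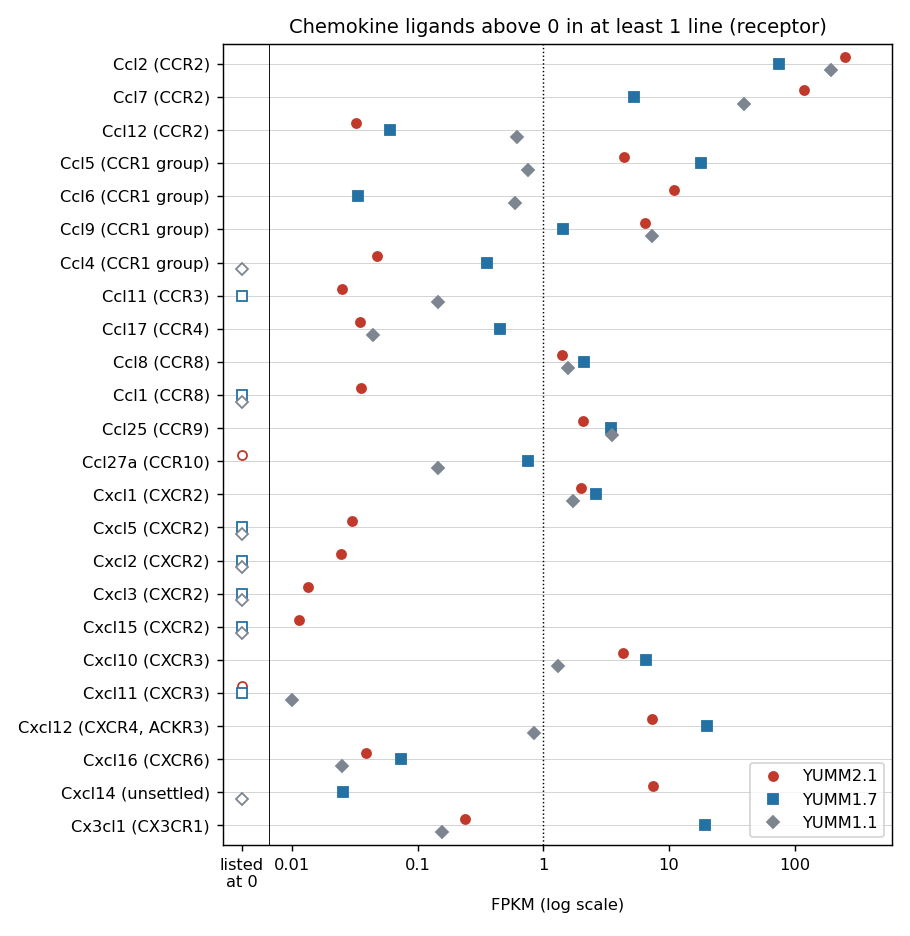
FPKM (log scale) of the ligands above 0 in at least 1 line, 1 point a line, with the receptor or receptor group in brackets, open points for values listed at 0 and a dotted line at 1 FPKM. Ccl2 lies furthest to the right in every line, at 250.6, 74.7 and 196 FPKM in YUMM2.1, YUMM1.7 and YUMM1.1, and the CXCR2 ligands other than Cxcl1 lie below 0.04 FPKM.

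The strongest signal came from the CCR2 ligands, which draw monocytes. Ccl2, encoding the monocyte chemoattractant MCP-1, stood at 250.6 FPKM in YUMM2.1 (interval 247 to 255), 74.7 FPKM in YUMM1.7 (71.7 to 77.9) and 196 FPKM in YUMM1.1 (192 to 200.3). It was the highest ligand in each line and exceeded 98.5%, 94.5% and 97.7% of all symbols there. Ccl7, encoding MCP-3, which binds CCR2 and also CCR1 and CCR3, stood at 117.6 FPKM in YUMM2.1, 5.26 FPKM in YUMM1.7 and 39.3 FPKM in YUMM1.1. Its level varied more between the lines than that of Ccl2. The Ccl7 to Ccl2 ratio, which no scaling of the libraries can alter, was 0.469 in YUMM2.1, 0.0703 in YUMM1.7 and 0.2005 in YUMM1.1.

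Ccl12, the mouse MCP-5 gene and the other CCR2 ligand, stood at 0.0324 FPKM in YUMM2.1, 0.0607 FPKM in YUMM1.7 and 0.621 FPKM in YUMM1.1. About 1, 1 and 15 fragments lie behind these levels. Ccl2 and Ccl7 together made up 88.7% of the summed ligand FPKM in YUMM2.1, 51.6% in YUMM1.7 and 92.6% in YUMM1.1. Summed over all ligands, expression was 415 FPKM in YUMM2.1, 155.0 FPKM in YUMM1.7 and 254 FPKM in YUMM1.1. Without Ccl2 and Ccl7 it was 46.9, 75.0 and 18.9 FPKM. YUMM1.7 was lowest with these genes and highest without them as deposited. Per M of each library's FPKM sum, the other 36 ligands held 67.6 in YUMM2.1, 41.0 in YUMM1.7 and 18.1 in YUMM1.1. A common FPKM sum shifts most genes, however. The median YUMM2.1 minus YUMM1.7 of symbols at 1 FPKM or more was then 1.099, against -0.02 as deposited, on the log2(FPKM + 1) scale.

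**Figure D2:**
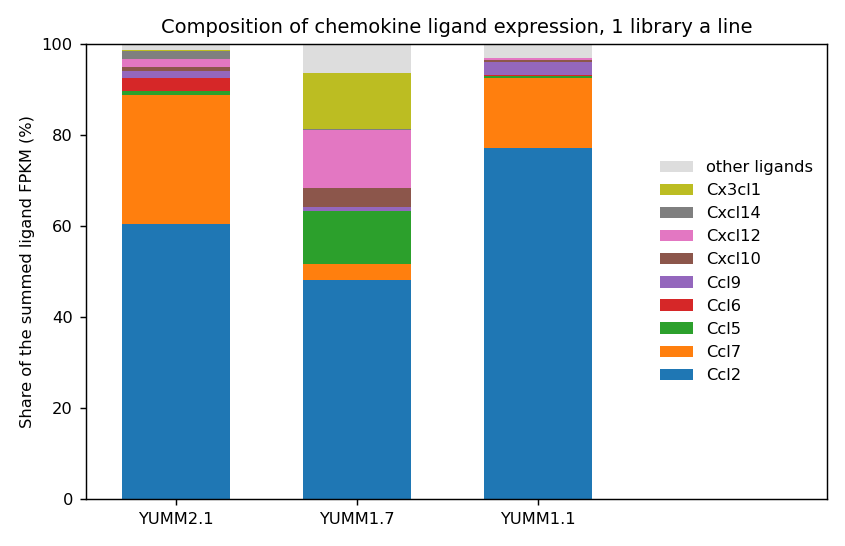
Share of the summed ligand FPKM (%) held by 9 ligands and by all others, 1 bar a line and 1 library a bar. Ccl2 and Ccl7 fill 88.7% of the YUMM2.1 bar, 51.6% of the YUMM1.7 bar and 92.6% of the YUMM1.1 bar, and Cxcl12, Cx3cl1 and Ccl5 are wide bands only in the YUMM1.7 bar.

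Ligands of CCR1, a receptor of monocytes and macrophages, and related inflammatory CC ligands differed between the lines in which gene was expressed. Ccl5, encoding RANTES, which binds CCR1 and CCR3 among its receptors, stood at 4.39 FPKM in YUMM2.1 (3.67 to 5.20), 17.9 FPKM in YUMM1.7 (15.9 to 20.1) and 0.754 FPKM in YUMM1.1 (0.445 to 1.19). YUMM1.7 was highest, YUMM2.1 between and YUMM1.1 lowest, with counting intervals that do not overlap as deposited. After rescaling to a common sum, YUMM2.1 minus YUMM1.7 was -0.57 in place of -1.81 on the log2(FPKM + 1) scale. Ccl9, a CCR1 ligand of rodents that acts on myeloid cells, stood at 6.397 FPKM in YUMM2.1, 1.42 FPKM in YUMM1.7 and 7.37 FPKM in YUMM1.1. YUMM1.7 was low and the other lines were close, though their intervals of 6.09 to 6.72 FPKM in YUMM2.1 and 6.995 to 7.75 FPKM in YUMM1.1 do not overlap.

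Ccl6, another CCR1 ligand of rodents and the gene beside Ccl9, stood at 11.02 FPKM in YUMM2.1, 0.0333 FPKM in YUMM1.7 and 0.598 FPKM in YUMM1.1. The levels stand for about 1243, 2 and 53 fragments, so only YUMM2.1 expressed it above 1 FPKM. The Ccl6 to Ccl9 ratio was 1.72 in YUMM2.1, 0.0234 in YUMM1.7 and 0.0812 in YUMM1.1, for transcripts of 1440 and 3006 nt. Ccl4, encoding MIP-1 beta, stood at 0.0474 FPKM in YUMM2.1 and 0.356 FPKM in YUMM1.7, about 2 and 8 fragments, and was listed at 0 in YUMM1.1. Ccl3, encoding MIP-1 alpha, was listed at 0 in all lines. Ccl6 is also made by myeloid cells, and Lyz2 ran beside it, at 25.9 FPKM in YUMM2.1, 0.0480 FPKM in YUMM1.7 and 4.96 FPKM in YUMM1.1. Cd68, at 4.27, 0.687 and 0.362 FPKM, and Cd53, at 3.01, 0.658 and 0.0215 FPKM in the same lines, were also highest in YUMM2.1. Ptprc, Itgam and Tyrobp were at or near 0 in all of these libraries, and 15 of the 24 leukocyte markers were listed at 0 in YUMM2.1. A myeloid source of Ccl6 was not tested.

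Of the other CC ligands, only Ccl8 and Ccl25 reached 1 FPKM. Ccl8, which acts on CCR8 in mice, stood at 1.40 FPKM in YUMM2.1 (0.996 to 1.91), 2.09 FPKM in YUMM1.7 (1.43 to 2.96) and 1.56 FPKM in YUMM1.1 (1.09 to 2.18). All of these intervals overlap, at 31 to 40 fragments a line, and after rescaling to a common sum YUMM2.1 minus YUMM1.7 was 0.51 in place of -0.37 and YUMM1.7 minus YUMM1.1 was -0.23 in place of 0.27. Ccl25, the CCR9 ligand that guides cells to thymus and gut, stood at 2.07 FPKM in YUMM2.1, 3.45 FPKM in YUMM1.7 and 3.55 FPKM in YUMM1.1. As deposited, YUMM1.7 and YUMM1.1 differed by less than counting error and YUMM2.1 lay below both. Once the libraries were rescaled to a common FPKM sum, YUMM2.1 lay 0.48 above YUMM1.7 on the log2(FPKM + 1) scale, and YUMM1.7 minus YUMM1.1 was -0.63.

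The remaining CC ligands stayed below 1 FPKM. The CCR4 ligand Ccl17 stood at 0.0346 FPKM in YUMM2.1, 0.454 FPKM in YUMM1.7 and 0.0443 FPKM in YUMM1.1, about 1, 7 and 1 fragments, and Ccl22, its partner ligand, was listed at 0 throughout. The CCR7 ligands Ccl19, Ccl21a, Ccl21b and Ccl21c and the CCR6 ligand Ccl20 were listed at 0 in all lines. So were the CCR3 ligands Ccl24 and Ccl26, the CCR10 ligand Ccl28, the CXCR5 ligand Cxcl13, the XCR1 ligand Xcl1, and Cxcl9 and Cxcl17. The eosinophil ligand Ccl11 stood at 0.0250 FPKM in YUMM2.1 and 0.144 FPKM in YUMM1.1 and was listed at 0 in YUMM1.7. Ccl1 was above 0 in YUMM2.1 alone, at 0.0356 FPKM, about 1 fragment.

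The skin chemokine gene Ccl27a had 0.756 FPKM in YUMM1.7 and 0.146 FPKM in YUMM1.1, beside a listing at 0 for YUMM2.1. Its values are uncertain, because 53.3% of the 50-base stretches in its transcripts also occur in other genes, among them Gm13306 and Ccl27b. The same share was 57.2% for Ccl19, 71.6% for Ccl21a and 100% for Ccl21b, so a listing at 0 is uncertain for these as well. For the 12 ligands at 1 FPKM or more it was 1.995% for Ccl9 and 0 for the rest.

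On chromosome 11, the CC genes lie in groups of neighbors whose members were not expressed alike. In the first group, in RefSeq order, Ccl2 and Ccl7 were abundant. Ccl11 and Ccl12, which follow directly, stayed below 0.7 FPKM in every line, Ccl8 reached between 1.40 and 2.09 FPKM, and Ccl1 was near 0. In the second group Ccl5, Ccl9 and Ccl6 stand side by side. Ccl5 was highest in YUMM1.7, Ccl9 was about as high in YUMM1.1 as in YUMM2.1, and Ccl6 was highest in YUMM2.1. Their neighbors Ccl3 and Ccl4 did not reach 1 FPKM.

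**Figure D3:**
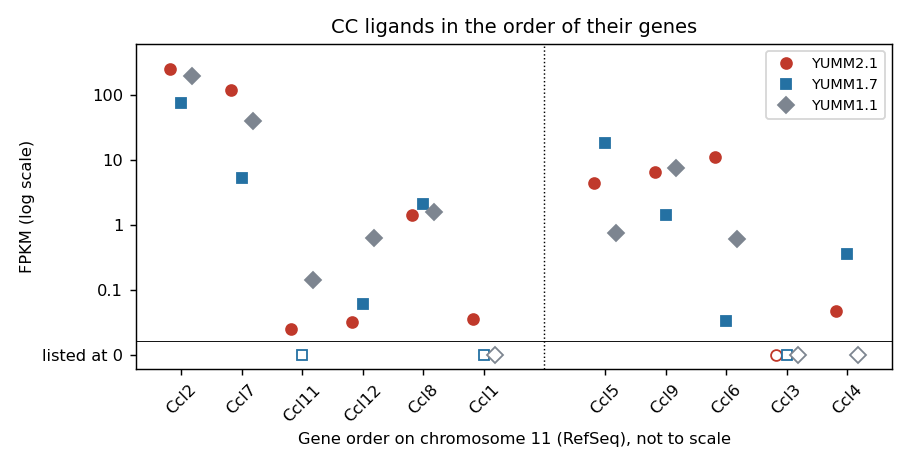
FPKM (log scale) of the 11 CC ligands that lie in neighboring groups on chromosome 11, in the order of their genes and not to scale, with 1 point a line, open points for values listed at 0 and a dotted line between the groups. Neighbors such as Ccl7 and Ccl11, at 117.6 and 0.0250 FPKM in YUMM2.1, differ widely in level.

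Among CXC ligands, the highest single level was that of the CXCR4 ligand in YUMM1.7. The highest in YUMM2.1 was Cxcl14, at 7.41 FPKM, and the highest in YUMM1.1 was Cxcl1, at 1.74 FPKM. Cxcl12, encoding SDF-1, which retains and attracts leukocytes and stem cells through CXCR4 and is scavenged by ACKR3, stood at 7.31 FPKM in YUMM2.1 (7.08 to 7.56), 19.9 FPKM in YUMM1.7 (19.3 to 20.4) and 0.839 FPKM in YUMM1.1 (0.7497 to 0.935). As deposited, the level was highest in YUMM1.7 and lowest in YUMM1.1, without overlap of the counting intervals. After rescaling to a common sum, YUMM2.1 minus YUMM1.7 was -0.04 in place of -1.33 on the log2(FPKM + 1) scale, and YUMM1.1 stayed lowest. Per Ccl2 transcript, Cxcl12 stood at 0.0292 in YUMM2.1, 0.266 in YUMM1.7 and 0.00428 in YUMM1.1. Ccl2 has 813 nt and Cxcl12 5627 nt, so library differences that go with transcript length would stay in this ratio.

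Ligands of CXCR3, which draw effector T cells and are induced by interferon, were represented by Cxcl10 alone. Cxcl10, encoding IP-10, stood at 4.34 FPKM in YUMM2.1 (3.90 to 4.82), 6.57 FPKM in YUMM1.7 (5.83 to 7.38) and 1.31 FPKM in YUMM1.1 (1.04 to 1.62). YUMM1.1 was lowest under every scaling tried. YUMM1.7 was highest as deposited and with a common upper quartile or median ratio. YUMM2.1 minus YUMM1.7 was -0.50, -0.26 and -0.51 in these on the log2(FPKM + 1) scale. Only a common sum put YUMM2.1 highest, 0.67 above YUMM1.7, and there the median of symbols at 1 FPKM or more was 1.099. Cxcl9 was listed at 0 in every line. Cxcl11, at 0.0101 FPKM in YUMM1.1, rested on about 1 fragment and was listed at 0 in the other lines. The Ccl5 to Cxcl10 ratio was 1.01 in YUMM2.1, 2.73 in YUMM1.7 and 0.576 in YUMM1.1. Ccl5 has 532 nt and Cxcl10 1094 nt, so the limit of transcript length holds for this ratio too.

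Ligands of CXCR2, which draw neutrophils, were represented by Cxcl1 alone. Cxcl1, encoding KC, stood at 1.996 FPKM in YUMM2.1 (1.68 to 2.36), 2.61 FPKM in YUMM1.7 (2.11 to 3.19) and 1.74 FPKM in YUMM1.1 (1.40 to 2.13). All 3 intervals overlap as deposited. After rescaling to a common sum, YUMM2.1 minus YUMM1.7 was 0.70 in place of -0.27, and YUMM1.7 minus YUMM1.1 was -0.14 in place of 0.40, on the log2(FPKM + 1) scale. Cxcl2, Cxcl3, Cxcl5 and Cxcl15 stood between 0.0114 and 0.0301 FPKM in YUMM2.1, about 1 to 4 fragments each, and were listed at 0 in YUMM1.7 and YUMM1.1. Ppbp and Pf4, platelet chemokines whose symbols lie outside the naming rule, stood at 0.0124 and 0.954 FPKM in YUMM2.1 and were listed at 0 in the other lines.

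Cxcl14, a chemokine of epithelia without a settled receptor, stood at 7.41 FPKM in YUMM2.1 (6.97 to 7.86) and 0.0253 FPKM in YUMM1.7 and was listed at 0 in YUMM1.1. The YUMM1.7 value stands for about 2 fragments, so expression above 1 FPKM was seen in YUMM2.1 alone. Cxcl16, the transmembrane CXCR6 ligand, stood at 0.0389 FPKM in YUMM2.1, 0.0734 FPKM in YUMM1.7 and 0.0248 FPKM in YUMM1.1. At 4 to 9 fragments a line, no difference was detectable at this depth.

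Cx3cl1, which encodes fractalkine, a membrane-bound adhesion molecule and attractant for CX3CR1-bearing monocytes and lymphocytes, was low in YUMM2.1 and YUMM1.1 and high in YUMM1.7. It stood at 0.238 FPKM in YUMM2.1 (0.184 to 0.302), 19.3 FPKM in YUMM1.7 (18.6 to 20.0) and 0.156 FPKM in YUMM1.1 (0.109 to 0.218). Its genomic neighbors are Ccl22, listed at 0 throughout, and Ccl17, which stayed below 1 FPKM. Cx3cl1 was the third highest ligand in YUMM1.7, after Ccl2 and Cxcl12.

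The first comparison set YUMM2.1 against YUMM1.7. By the 2-fold rule, 5 of the 38 ligands were higher in YUMM2.1, where 5.34% of all symbols were, and 3 of 38 were lower, where 8.90% of all symbols were. The ligand shares were 13.2% and 7.89%, so the share that was lower lay close to that of all symbols, and the median difference was 0 over all ligands and 0 over all symbols. Higher in YUMM2.1 were Ccl7 (22.4-fold in FPKM, difference 4.25), Ccl6 (difference 3.54), Cxcl14 (difference 3.04), Ccl2 (3.35-fold, difference 1.73) and Ccl9 (4.49-fold, difference 1.61). Lower in YUMM2.1 were Cx3cl1 (81.0-fold higher in YUMM1.7, difference -4.03), Ccl5 (4.08-fold higher in YUMM1.7, difference -1.81) and Cxcl12 (2.72-fold higher in YUMM1.7, difference -1.33). At a 4-fold difference, 3 ligands were higher and 1 was lower, beside 1.42% and 2.52% of all symbols.

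Both the scaling and transcript length bear on this comparison. With both libraries rescaled to the same FPKM sum, 5 ligands were higher and 1 was lower, beside 25.0% and 1.98% of all symbols. The median difference of the 11741 symbols at 1 FPKM or more moved to 1.099, against -0.02 as deposited. The differences of Cxcl12 and Ccl5 were then -0.04 and -0.57, while Cx3cl1 stood at -3.19, Ccl2 at 3.12 and Ccl7 at 5.49. Among expressed symbols with a transcript of up to 1000 nt, the median difference was -1.15 and 57.7% were at least 2-fold lower in YUMM2.1. Ccl2 (813 nt) and Ccl7 (801 nt) were higher in YUMM2.1, unlike that class, and Ccl5 (532 nt), at -1.81, was lower like its class. Cxcl12 (5627 nt) and Cx3cl1 (3315 nt) are long. Symbols over 4000 nt had a median of 0.35 and those over 2000 and up to 4000 nt of 0.01. How far length accounts for single values was not tested. The leukocyte markers Lyz2, Cd53 and Cd68 and 5 of the 13 melanocyte markers were also at least 2-fold higher in YUMM2.1. Of the 10 fibroblast markers, 3 were higher and 5 lower on the log2(FPKM + 1) scale. The higher ones were Tagln at 2.70, Acta2 at 1.12 and Col3a1 at 1.04. The lower ones included Col1a2 at -6.27, the receptor gene Pdgfra at -3.67 and Cd34 at -3.26. The part of these marker genes in the ligand differences was not tested.

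The second comparison set YUMM2.1 against YUMM1.1, and it shares the YUMM2.1 library with the first. Here 6 of 38 ligands were higher in YUMM2.1 (15.8%, beside 2.83% of all symbols) and 0 were lower, beside 3.48% of all symbols. The 6 were Cxcl14 (listed at 0 in YUMM1.1, difference 3.07), Ccl6 (18.4-fold in FPKM, difference 2.91), Cxcl12 (8.72-fold, difference 2.18), Ccl5 (5.82-fold, difference 1.62), Ccl7 (2.99-fold, difference 1.56) and Cxcl10 (3.32-fold, difference 1.21). At a 4-fold difference, 3 were higher and 0 lower, beside 0.671% and 0.504% of all symbols. Ccl2 differed by 0.35, Cxcl1 by 0.13, Cx3cl1 by 0.10, Ccl8 by -0.10, Ccl9 by -0.18 and Ccl25 by -0.57, all short of the rule. Ccl8 and Ccl9 changed sign when the libraries were rescaled to a common sum or a common upper quartile. Short transcripts, of up to 1000 nt, had a median of -0.52 in this comparison, whereas Ccl7 and Ccl5 were higher. The leukocyte markers Lyz2, Cd53, Cd68 and S100a8 were at least 2-fold higher in YUMM2.1 than in YUMM1.1 as well. Of the fibroblast markers 3 were higher and 1 lower, with differences for Tagln at 6.82, Acta2 at 6.77, Pdgfrb at 1.51 and Col3a1 at -1.08. Of the melanocyte markers 2 were higher and 1 lower, with Mlana at 2.63, Rab27a at 1.045 and Sox10 at -1.26. The part of these marker genes was not tested.

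The third comparison set YUMM1.7 against YUMM1.1, and it shares a library with each of the others. Of the 38 ligands, 4 were higher in YUMM1.7 (10.5%, beside 6.16% of all symbols) and 3 were lower (7.89%, beside 4.51%). Higher were Cx3cl1 (123-fold in FPKM, difference 4.13), Cxcl12 (23.7-fold, difference 3.51), Ccl5 (23.8-fold, difference 3.43) and Cxcl10 (5.02-fold, difference 1.71). Lower were Ccl7 at 0.134 times its YUMM1.1 level (difference -2.69), Ccl9 at 0.193 times (difference -1.79) and Ccl2 at 0.381 times (difference -1.38). At a 4-fold difference, 3 were higher and 1 was lower, beside 1.80% and 1.39% of all symbols. Each of the 7 past the 2-fold rule kept its call under all 3 other scalings. Transcripts of up to 1000 nt had a median of 0.65 here, so Ccl2 and Ccl7 ran against their length class and Ccl5 with it. Among fibroblast markers 7 of 10 were higher in YUMM1.7, led by Col1a2 at 126.7 FPKM in YUMM1.7 against 0.0367 FPKM in YUMM1.1, and 1 was lower, Col3a1 at -2.12. The melanocyte markers Sox10 at -6.75, Rab38 at -4.13 and Mlph at -4.09 were lower in YUMM1.7. Of the leukocyte markers S100a8 was higher, at 1.48, and Lyz2 lower, at -2.51. The part of these marker genes was not tested.

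**Figure D4:**
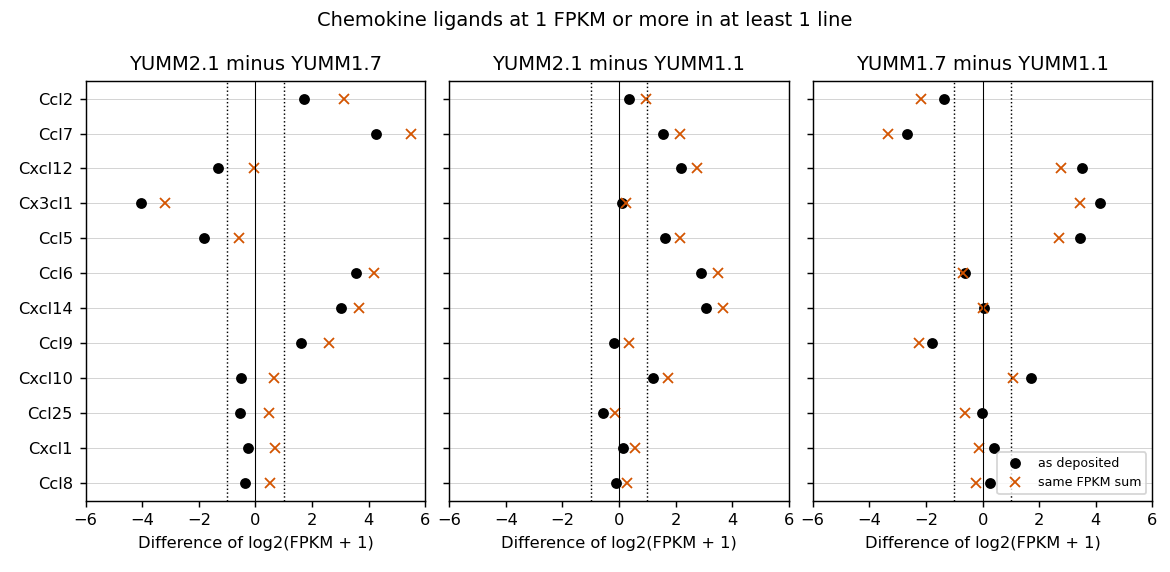
Difference of log2(FPKM + 1) for the 12 ligands at 1 FPKM or more in at least 1 line, in 3 panels for the 3 comparisons, as deposited (circles) and after rescaling to the same FPKM sum (crosses), with dotted lines at -1 and 1. Cxcl12 and Ccl5 in the first panel move inside the dotted lines after rescaling, to -0.04 and -0.57, while Ccl7 and Cx3cl1 stay outside.

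Few chemokine receptor genes were expressed in the lines. Of 17 signaling chemokine receptors, 3 reached 1 FPKM in at least 1 line. Cxcr4, the receptor of Cxcl12, stood at 4.31 FPKM in YUMM1.7 and was listed at 0 in YUMM2.1 and YUMM1.1. As deposited, YUMM1.7 held the highest level of both ligand and receptor. With a common FPKM sum, Cxcl12 in YUMM2.1 was level with YUMM1.7 (difference -0.04). Cxcr2, the receptor of Cxcl1, stood at 0.985 FPKM in YUMM2.1, 2.73 FPKM in YUMM1.7 and 2.07 FPKM in YUMM1.1. Ccr10, the receptor of Ccl27a and Ccl28, stood at 1.13, 0.270 and 0.201 FPKM in the same lines. Ccr1, which binds Ccl5, Ccl6 and Ccl9, did not reach 1 FPKM, at 0.274, 0.219 and 0.0371 FPKM. Ccr2, the receptor of Ccl2, and Cxcr3, the receptor of Cxcl10, were listed at 0 in every line. Of 5 atypical receptors in the table, which bind chemokines without G protein signaling, only the ACKR3 gene, listed as Cxcr7, reached 1 FPKM. It stood at 0.267 FPKM in YUMM2.1, 4.14 FPKM in YUMM1.7 and 1.13 FPKM in YUMM1.1.

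In a list of 19 genes of NF-kB subunits, feedback and targets, the pathway that induces Ccl2, Cxcl1 and Cxcl10, 2 were higher and 0 lower by the 2-fold rule in YUMM2.1 against YUMM1.7. The numbers were 2 and 0 against YUMM1.1, and 1 and 1 for YUMM1.7 beside YUMM1.1. Of all symbols, 5.34% and 8.90%, 2.83% and 3.48%, and 6.16% and 4.51% were higher and lower. After rescaling to a common sum the counts of the list were 4 and 0, 3 and 0, and 1 and 2. The shares of all symbols were then 25.0% and 1.98%, 8.03% and 1.26%, and 2.57% and 12.5%. The subunit gene Nfkb2 stood at 11.4, 11.3 and 11.8 FPKM in YUMM2.1, YUMM1.7 and YUMM1.1, Rela at 12.5, 18.4 and 18.4 FPKM, and Relb at 3.25, 3.77 and 1.85 FPKM. Il6, Vcam1, Tnfaip3 and Birc3 are named because they had the largest differences of the list. Il6, an inflammatory cytokine gene, stood at 21.4, 0.672 and 0.896 FPKM, and Vcam1, a leukocyte adhesion gene, at 10.2, 14.1 and 1.89 FPKM. Tnfaip3, a feedback inhibitor, stood at 2.35, 0.332 and 1.89 FPKM, and Birc3 at 0.795, 1.18 and 0.139 FPKM. Tnf stood at 0.00770 FPKM in YUMM2.1 and 0.00983 FPKM in YUMM1.1 and was listed at 0 in YUMM1.7, and Il1b was listed at 0 in all lines.

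In a list of 11 genes, of interferon receptors, their transcription factors and inhibitor and the interferon-induced checkpoint ligand gene Cd274, 0 were higher and 2 lower in YUMM2.1 against YUMM1.7, 0 higher and 1 lower against YUMM1.1, and 3 higher and 1 lower in YUMM1.7 against YUMM1.1. The shares of all symbols past the rule were 5.34% higher and 8.90% lower, 2.83% and 3.48%, and 6.16% and 4.51%. With a common sum the interferon counts were 4 and 2, 1 and 1, and 2 and 4. The shares of all symbols were those given for the NF-kB list after the same rescaling. Irf7 stood at 0.208 FPKM in YUMM2.1, 12.0 FPKM in YUMM1.7 and 0.479 FPKM in YUMM1.1. Irf9 stood at 1.97, 14.9 and 2.68 FPKM, the receptor gene Ifngr2 at 16.7, 31.5 and 9.58 FPKM, and the inhibitor gene Socs1 at 6.38, 12.6 and 20.4 FPKM. Irf1, a transcription factor gene, was close in the 3 lines, at 13.6, 13.2 and 17.2 FPKM. Ccl5 was highest in YUMM1.7, like Irf7 and Irf9, and passed the 2-fold rule in YUMM2.1 against YUMM1.1, which Irf7 and Irf9 did not. With 3 libraries, no relation between these genes and the ligands was tested.

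**Figure D5:**
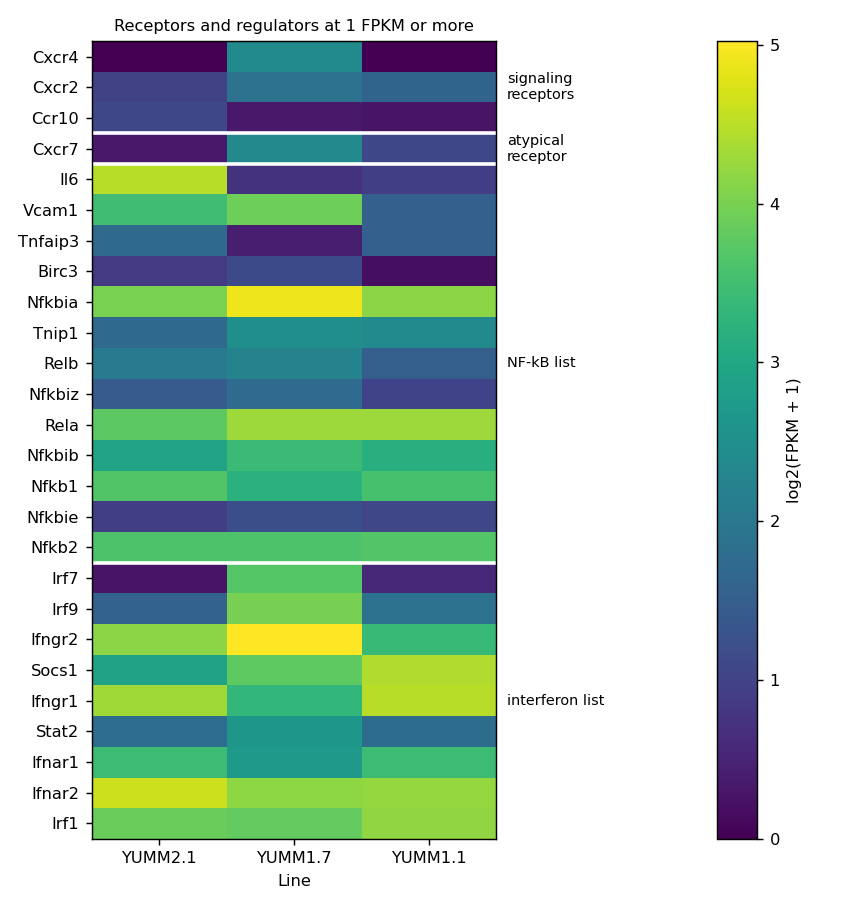
log2(FPKM + 1) of the 26 receptor and regulator genes at 1 FPKM or more in at least 1 line, with 1 column a line and white lines between gene lists. Cxcr4, Cxcr7, Irf7 and Irf9 are brightest in the YUMM1.7 column, Il6 in the YUMM2.1 column, and Nfkb2, at 11.4, 11.3 and 11.8 FPKM, has nearly the same color in all of them.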

How the data were processed

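Total RNA of 3 mouse melanoma lines was sequenced, 1 library a line. Per the submitters' processing notes, TopHat2 2.0.9, Cufflinks and Cuffnorm were used. Other versions, the build, the annotation and the scaling of libraries were not given in the sources used here. FPKM values were deposited by the authors, 1 for each gene symbol, with 0 symbols repeated. They were used as deposited, read as log2(FPKM + 1) with no filter, and compared without a test.

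The 38 ligands were fixed by their symbols, and the ligands and gene lists were chosen with earlier results of these data known. Ligands at 1 FPKM or more in at least 1 line were named with all values. Of each other list, up to 4 genes with the largest difference were named, plus a fixed set of receptors, regulators and leukocyte genes. Some genes of these lists are not reported here.

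Depth was inferred from the spacing of low FPKM values in symbols with a single GENCODE M21 transcript of 800 to 3000 nt, with 200 nt taken off each length. Of those values, 86.6%, 83.2% and 84.7% in YUMM2.1, YUMM1.7 and YUMM1.1 lay within 0.2 of a whole multiple. Checked on simulated counts for 2407 transcripts, the step was found to within 0.0432%. Fragment numbers assume the longest transcript with a RefSeq mRNA and are approximate. Length classes, which covered 81.9% of expressed symbols, and the search for shared 50-base stretches were added after the values were seen. Gene order was read from RefSeq.

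Alternatives were pseudocounts of 0.1 and 5, a 4-fold rule, filters at 1 and 5 FPKM, values at 0 left out, and rescaling to a common sum, upper quartile or median ratio. Python 3.11.15, numpy 2.4.6, pandas 2.3.3, scipy 1.17.1 and matplotlib 3.10.9 were used.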

Additional observations from a re-analysis of the deposited data

How the results depend on the processing

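Counts of ligands by the 2-fold rule stayed within 1.5 times of those reported, except as follows. At a pseudocount of 0.1, 6 ligands were lower in YUMM2.1 against YUMM1.7 and 2 were lower in YUMM2.1 against YUMM1.1, while 7 were higher and 6 lower in YUMM1.7 against YUMM1.1. The added ligands were below 1 FPKM in both lines. With the 4-fold rule, YUMM2.1 had 3 higher and 1 lower against YUMM1.7 and 3 higher against YUMM1.1, and YUMM1.7 had 1 lower against YUMM1.1. With a common FPKM sum, YUMM2.1 against YUMM1.7 had 1 lower ligand, Cx3cl1. Of the 8, 6 and 7 ligands past the rule in the 3 comparisons, all kept their sign under the 3 rescalings, and 6, 6 and 7 stayed past it. A common sum moved the median of symbols at 1 FPKM or more to 1.099, 0.43 and -0.60, and a common upper quartile to 0.22, 0.11 and -0.04. A filter at 1 FPKM changed no count, but left 12 ligands with medians of -0.32, 0.78 and 0.15, where all symbols had -0.02, -0.05 and 0.02. A filter at 5 FPKM left 9 ligands with medians of 1.61, 1.56 and 0.04, where all symbols had -0.16, -0.15 and 0.04. The first median thus turned sign between the filters. Each filter keeps a symbol through the line where it is highest, so these medians describe a few selected ligands and not the family. Values of about 1 to 4 fragments cannot rank lines, and a listing at 0 is not read as absence of expression. No paired analysis was possible because each line has 1 library.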

Other observations

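Proteases that trim or shed chemokines were read from a list of 7 genes, of which 4 reached 1 FPKM. By the 2-fold rule 3 were higher and 0 lower in YUMM2.1 against YUMM1.7, 1 higher and 0 lower against YUMM1.1, and 1 higher and 1 lower in YUMM1.7 against YUMM1.1, where 5.34% and 8.90%, 2.83% and 3.48%, and 6.16% and 4.51% of all symbols were. With a common FPKM sum the counts were 4 and 0, 2 and 0, and 1 and 3, where 25.0% and 1.98%, 8.03% and 1.26%, and 2.57% and 12.5% of all symbols were. Adam10, whose product releases fractalkine and the CXCR6 ligand from the membrane, stood at 80.6 FPKM in YUMM2.1, 16.3 FPKM in YUMM1.7 and 75.0 FPKM in YUMM1.1. Adam17, another such sheddase gene, stood at 14.3, 5.35 and 10.9 FPKM, so both were lowest in YUMM1.7, the line with the highest Cx3cl1 level. A relation between these genes was not tested, and release of the protein was not measured. Mmp2, a gelatinase known to cleave Ccl7 and Cxcl12, stood at 14.6, 10.2 and 1.67 FPKM, and the carboxypeptidase gene Cpd at 13.9, 4.26 and 8.47 FPKM. Dpp4, which inactivates several chemokines by removing their first residues, stood at 0.00432 FPKM in YUMM2.1 and was listed at 0 in the other lines.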
